A study of Mus musculus with 16 samples.

Results

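The genes described here are 10 components of toll-like receptor (TLR) signalling, namely the receptors Tlr2, Tlr5 and Tlr6, the co-receptors Cd14 and Ly96, the adaptors Ticam1 and Ticam2, the kinases Irak2 and Irak4, and Traf3. They were given as a list of mouse symbols, and each symbol matched 1 Ensembl gene, so that the members make up 10 of the 33072 genes in the deposited table. RNA was sequenced from 2 BALB/c mouse mammary carcinoma cell lines that arose from the same spontaneous tumor, the metastatic 4T1 and the non-metastatic 67NR. Each line was incubated for 24 h in medium with fetal bovine serum and either vehicle (DMSO) or 15 µM CIX, an inhibitor of the cytosolic phospholipase cPLA2α. The 4 groups, vehicle treated 4T1, CIX treated 4T1, vehicle treated 67NR and CIX treated 67NR, held 4 biological replicates each. Replicates carry the numbers that the labels give to the 16 samples. Metastatic ability was represented by 1 line of each kind, so that it cannot be told apart from any other difference between the lines.

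TLRs are membrane receptors that recognise microbial components and molecules released from damaged cells, best known from innate immune cells but also present in epithelial and tumor cells. TLR2 pairs with TLR6 or TLR1 to bind lipopeptides, TLR5 binds bacterial flagellin, and TLR4 binds lipopolysaccharide only together with MD-2 (the product of Ly96), to which CD14 hands over the ligand. Signals pass through MyD88, IRAK4 and IRAK2 to NF-κB, or through TRAM (Ticam2) and TRIF (Ticam1) to TRAF3 and the interferon regulatory factors.

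The total estimated count per sample lay between 21715700 and 29450629, and 3 counts, taken as the smallest detectable level, corresponded to 0.102 to 0.138 counts scaled to the library size (CPM), a floor that covers counting error only. Levels below are CPM after TMM scaling over all 16 samples. The summed level of 7 mammary epithelial markers was 2277 to 2485 TPM (the count per transcript length, scaled to the library) in the 8 4T1 samples but 0.656 to 4.12 TPM in the 8 67NR samples, where these markers were near 0. Of these markers, Krt5 and Krt14 were low in 4T1 cells too. Krt5 was at most 0.0255 TPM there, and Krt14 had means of 0.521 and 2.07 TPM under vehicle and CIX. The summed level of 5 mesenchymal genes was 3698 to 7005 TPM in 67NR and 917 to 2380 TPM in 4T1 cells. Nearly all of this sum was Vim, with group means of 4278 and 6426 TPM in vehicle and CIX treated 67NR cells. In 4T1 cells Vim had means of 996.5 and 2238 TPM. Cdh2 had group means of 49.7 and 53.9 TPM and Zeb1 of 40.55 and 48.7 TPM in 67NR cells. Col1a1 and Col1a2 had group means of 1.06 to 3.14 TPM there. In 4T1 cells the group means of Cdh2, Zeb1, Col1a1 and Col1a2 were at most 0.771 TPM. The summed level of 8 leukocyte markers was 72.3 to 118.5 TPM in vehicle treated and 173.5 to 264.3 TPM in CIX treated 4T1 cells, and 11.2 to 17.8 and 47.6 to 53.5 TPM in vehicle and CIX treated 67NR cells. Nearly all of it was Cd68, a lysosomal glycoprotein, at group means of 11.6 to 216.6 TPM, whereas the defining markers Ptprc (CD45) and Adgre1 (F4/80) had group means of at most 0.560 TPM and 0 counts in every sample, respectively. In such bulk RNA, fewer cells expressing a gene and less RNA per cell cannot be told apart.

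A member was taken as expressed in a line unless its TPM was below 1 in more than 3 of the 8 samples of that line. By this rule Tlr6, Cd14, Ly96, Ticam1, Irak2, Irak4 and Traf3 were expressed in both lines, Tlr2 was expressed in 4T1 cells alone, and Tlr5 and Ticam2 were expressed in neither. Per transcript length, Cd14 was the highest member in vehicle treated 4T1 cells at 30.5 TPM, followed by Irak2 at 29.9 and Traf3 at 27.9 TPM, and the ranges of these 3 genes overlapped. Tlr2 with 15.8, Irak4 with 15.5, Ticam1 with 12.6 and Ly96 with 9.45 TPM came next, each overlapping its neighbour, and Tlr6 followed with 5.21 TPM below the range of Ly96. In vehicle treated 67NR cells Cd14 stood apart at 36.4 TPM, above Ticam1, Traf3 and Irak2 at 10.6, 10.1 and 9.89 TPM, whose ranges overlapped. Irak4 and Ly96 (5.75 and 4.5 TPM) overlapped as well, and Tlr6 at 1.35 TPM overlapped with Tlr2 at 0.791 TPM. After CIX, Irak2 was the highest member in 4T1 cells at 38.2 TPM, above the range of Traf3 at 20.7 TPM, whose range overlapped with that of Cd14 at 14.9 TPM, as that of Cd14 did with Ticam1 at 14.8 TPM. In CIX treated 67NR cells Cd14 remained the highest at 43.3 TPM.

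**Figure D1:**
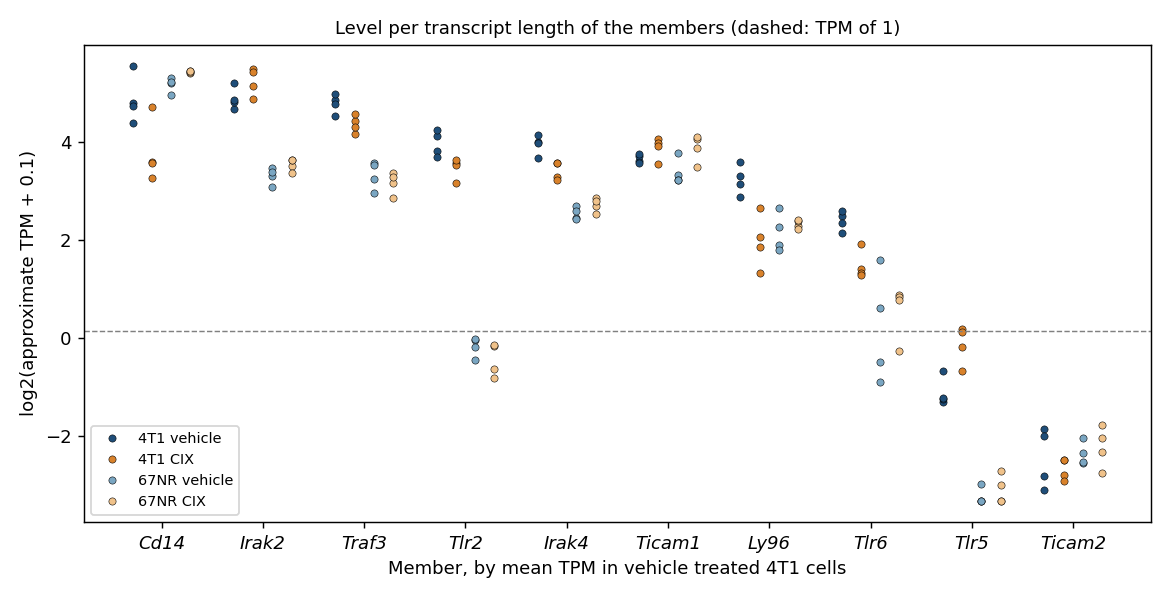
Level per transcript length of each member, as log2(approximate TPM + 0.1), in every sample of the 4 groups; each point is 1 sample, and members are ordered by their mean in vehicle treated 4T1 cells. Tlr2 lies above a TPM of 1 (dashed line) in all 4T1 samples and below it in all 67NR samples, and Ticam2 lies below it in every sample.

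Promoter sequences, from 250 bases before to 50 bases after the start, were taken from RefSeq (GRCm38.p6), with windows for 7 of the 10 members, 2 of them for Tlr6, and none used here for Cd14, Ly96 and Ticam2. They were searched on both strands for the kappaB motif, which NF-κB binds, for the interferon-stimulated response element, and for TGANTCA, the AP-1 motif. A kappaB match occurred in 2 of the 8 windows, those of Tlr2 and Traf3, and in 4.51% of all 32851 windows. The response element was found in 1 of 8, a window of Tlr6, and in 3.44% of all windows, and AP-1 in 0 of 8 and 7.81%. The 3 windows with a match are shown from 5′ to 3′ on the gene's strand because they hold the matches, with the matched bases in capitals, where overlapping matches run together.
Tlr2 promoter (minus strand, chr3:83841559-83841858): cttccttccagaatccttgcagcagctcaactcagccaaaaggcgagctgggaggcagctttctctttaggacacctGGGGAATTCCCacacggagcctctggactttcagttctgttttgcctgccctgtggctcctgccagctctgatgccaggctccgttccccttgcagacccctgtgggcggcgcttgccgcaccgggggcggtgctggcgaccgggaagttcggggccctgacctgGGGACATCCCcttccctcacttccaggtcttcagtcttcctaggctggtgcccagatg
Traf3 promoter (plus strand, chr12:111166120-111166419): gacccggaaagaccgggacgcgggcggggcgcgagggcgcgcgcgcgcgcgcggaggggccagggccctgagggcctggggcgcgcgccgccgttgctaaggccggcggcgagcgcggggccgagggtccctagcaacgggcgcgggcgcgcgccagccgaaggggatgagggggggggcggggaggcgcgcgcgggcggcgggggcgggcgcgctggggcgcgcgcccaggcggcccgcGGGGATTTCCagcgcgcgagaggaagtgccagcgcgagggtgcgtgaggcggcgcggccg
Tlr6 promoter (minus strand, chr5:64959117-64959416): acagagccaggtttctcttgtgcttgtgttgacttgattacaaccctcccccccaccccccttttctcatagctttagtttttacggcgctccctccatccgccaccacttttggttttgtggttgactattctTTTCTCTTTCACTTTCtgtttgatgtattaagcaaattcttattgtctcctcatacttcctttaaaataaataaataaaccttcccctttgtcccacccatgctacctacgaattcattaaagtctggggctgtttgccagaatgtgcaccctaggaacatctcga
The Tlr2 window held 3 matched positions, the first 2 overlapping at 173 to 163 bases before the start and the last reaching from 8 bases before to 1 base after it, whereas the match of Traf3 ended directly before the start. These are matches of letters and not measured binding.

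The untreated lines were compared first. Of the 7 members expressed over the 8 vehicle samples, 3 passed the threshold (limma-voom, Benjamini-Hochberg adjusted p below 0.001), namely Irak2, Irak4 and Traf3, and all 3 were higher in 4T1 cells. Of all 11040 genes tested in this comparison 40% passed, and 20.4% passed with higher expression in 4T1, so that a share of 3 in 7 was near the background. The median log2 fold change of the 7 members was 1.32, against -0.01 over all genes. At a threshold of 0.05 Tlr6 and Ly96 passed too, also higher in 4T1, which gives 5 of 7 members, where 33.3% of all genes were higher, 34.1% lower and 67.4% passed in either direction. The same 5 members lay higher in every 4T1 sample than in any 67NR sample, which held for 31.3% of all genes, and 61.6% did not overlap in either direction. Cd14 and Ticam1 did not pass at either threshold.

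For CIX against vehicle, 0 of 8 members passed 0.001 in 4T1 cells by limma-voom, where 9.34% of 11659 genes passed, 5.35% higher and 3.99% lower. In 67NR cells 0 of 7 passed, against 0.389% of 11560 genes (0.182% higher and 0.208% lower). For the difference of the response between the lines 0 of 8 passed, against 7.86% of 12605 genes (4.81% more positive and 3.05% more negative in 4T1). At an unadjusted p below 0.05 the counts were 8, 2 and 4, where 51.15%, 32.8% and 39.1% of all genes passed, and at the adjusted p threshold edgeR's quasi-likelihood test gave 0 in each, while the DESeq2 Wald test gave 1 in 4T1 (Tlr6, adjusted p = 0.00051, where 3096 of the 11659 genes passed) and 0 in the others. At an adjusted p below 0.05, 6 of 8 members were lower after CIX in 4T1 cells (Tlr2, Tlr6, Cd14, Ly96, Irak4 and Traf3) and 0 were higher, where 20.8% of all genes were lower, 21.9% higher and 42.7% passed in either direction. Of the 8, 4 were lower in every CIX sample than in any vehicle sample (Tlr2, Tlr6, Ly96 and Irak4), as were 18.8% of all genes, and 40% of all genes did not overlap in either direction. The median log2 fold change over the 8 members was -0.44, against -0.01 over all genes. The count of lower members moved with single samples. It was 2 without vehicle replicate 7 (33.9% of all genes passed in either direction) and 3 without any one of vehicle replicates 3 and 15 or CIX replicates 8, 12 and 16 (34.1% to 41% of all genes). It was 5 without vehicle replicate 11, where Irak2 passed as higher (39.8% of all genes), and 5 without CIX replicate 4, where Irak2 and Ticam1 passed as higher (44.5% of all genes). Tlr6 and Ly96 were below 0.05 in all 8 fits that lacked 1 sample. In the common fit of all 16 samples 6 were lower and 1 higher (49.7% of all genes), and with sample quality weights 6 were lower and 2 higher (55.6%). Without the filter on low values, Tlr6 and Ly96 passed as lower and Tlr5 as higher, and 24.7% of all genes passed. For the difference between the lines, Cd14, Ly96 and Irak4 passed 0.05 (3 of 8, all more negative in 4T1, against 14.2% of all genes in that direction and 29.4% in either), and these 3 stayed below 0.05 whichever of the 16 samples was removed. In 67NR cells Cd14 alone passed 0.05 (1 of 7, higher, against 8.51% of all genes higher and 9.26% lower). The comparisons of 4T1 cells, of the untreated lines and of the difference share the same vehicle samples.

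**Figure D2:**
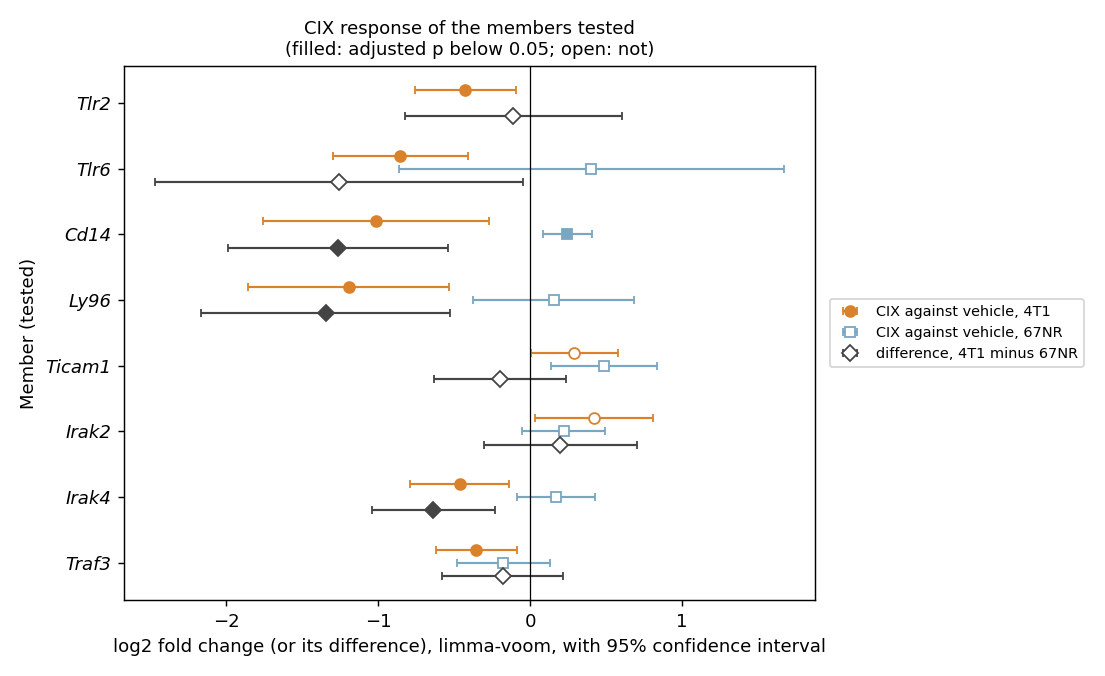
Log2 fold change of CIX against vehicle in 4T1 and in 67NR cells and the difference between them, with 95% confidence intervals from limma-voom, for the members that were tested; filled symbols have an adjusted p below 0.05. Cd14, Ly96 and Irak4 show negative values in 4T1, values above 0 in 67NR and a filled difference, and no member passed 0.001.

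Tlr2 (ENSMUSG00000027995, chromosome 3, 83836272 to 83841767), which recognises bacterial lipoproteins, was measured at 39.7, 31.7, 30.7 and 41.1 CPM in vehicle treated 4T1 cells (replicates 3, 7, 11 and 15). In vehicle treated 67NR cells it lay at 2.08, 1.86, 2.08 and 1.60 CPM (replicates 1, 5, 9 and 13). The lines were therefore far apart, with means of 35.8 ± 5.39 and 1.91 ± 0.226 CPM (SD, n = 4). The gene did not pass the filter over the vehicle samples, and in the fit without that filter it was called at 0.001 as higher in 4T1. With CIX, 4T1 cells held 28.5, 27.6, 22.04 and 30.0 CPM (replicates 4, 8, 12 and 16), each below every vehicle sample, a log2 fold change of -0.42 (95% confidence interval -0.76 to -0.09, limma-voom adjusted p = 0.042). It was below 0.05 in 3 of the 8 fits that lacked 1 sample (adjusted p from 0.030 to 0.109). CIX treated 67NR cells gave 2.02, 1.34, 1.90 and 1.11 CPM (replicates 2, 6, 10 and 14), which overlapped with their vehicle samples (exact permutation test, 2-sided p = 0.229). The response did not differ detectably between the lines, with a difference of -0.11 and an interval from -0.83 to 0.61, where the 67NR side rests on a level below 1 TPM.

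Tlr6 (ENSMUSG00000051498, chromosome 5, 64952031 to 64960097), the partner of TLR2 for diacylated lipopeptides, shared 16.6% of its 31-base words with transcripts of other genes, nearly all of them (16.4%) with its neighbour and paralog Tlr1. The longest stretch that both genes hold in identical form runs over 229 bases, from base 1507 to 1735 of the Tlr6 coding sequence and from 1468 to 1696 of that of Tlr1. It is shown because reads inside it could have come from either gene.
Tlr6 and Tlr1 shared stretch: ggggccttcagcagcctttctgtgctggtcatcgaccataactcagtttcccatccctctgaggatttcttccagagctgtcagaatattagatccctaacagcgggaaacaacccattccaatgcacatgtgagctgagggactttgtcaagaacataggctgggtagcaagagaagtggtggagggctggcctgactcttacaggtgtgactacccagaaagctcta
The estimated counts of Tlr6 can therefore hold reads of Tlr1, which had means of 2.84 CPM in vehicle treated and 0.796 CPM in CIX treated 4T1 cells and of 1.38 and 1.34 CPM in 67NR cells. The mean of Tlr1 was thus lower after CIX in 4T1, with overlapping groups (23, 142, 44 and 57 counts against 19, 18, 7 and 34), and its part in the result for Tlr6 was not tested. In vehicle treated 4T1 cells Tlr6 stood at 6.77, 8.53, 8.14 and 8.89 CPM, and in CIX treated ones at 4.21, 3.93, 6.23 and 3.89 CPM. Every CIX sample was below every vehicle sample, with replicate 12 closest to them, and the log2 fold change was -0.85 (SE 0.20, limma-voom adjusted p = 0.0073), or 0.554-fold. Removal of any 1 of the 8 samples gave values from -1.03 to -0.79. In 67NR cells the samples scattered widely, with 4.81, 2.31, 0.706 and 1.06 CPM under vehicle (121, 52, 18 and 25 counts) and 3.02, 2.84, 1.19 and 2.62 CPM under CIX. No direction could be given there, since the log2 fold change of 0.40 had an interval from -0.86 to 1.67 and became -0.029 without vehicle replicate 9. Between the untreated lines Tlr6 was higher in every 4T1 sample, by 2.20 on the log2 scale (SE 0.44), and the limma-voom adjusted p of 0.0017 missed the threshold. Without 67NR vehicle replicate 1, the highest of its group, it was 2.74 with an adjusted p of 0.00022.

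Tlr5 (ENSMUSG00000079164, chromosome 1, 182954788 to 182976044), the flagellin receptor, had low counts in 4T1 cells and lay below the floor of 3 counts in 67NR cells. In vehicle treated 4T1 cells it gave 13, 12, 13 and 21 counts (0.521, 0.541, 0.578 and 0.860 CPM) and in CIX treated 4T1 cells 35, 43, 27 and 44 counts (1.40, 1.85, 0.971 and 1.78 CPM). All CIX samples lay above all vehicle samples, the opposite order to the other receptors (exact permutation test, 2-sided p = 0.0286, the smallest that 4 samples against 4 can give). In a fit without the filter on low values its log2 fold change was 1.26 (SE 0.33, limma-voom adjusted p = 0.018). The 8 67NR samples held 0 to 2 counts each, and 1 count in all under vehicle against 59 in 4T1, a ratio of 59.7 per sequenced count with a 95% exact interval of 10.3 to 2397 that covers counting error only.

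**Figure D3:**
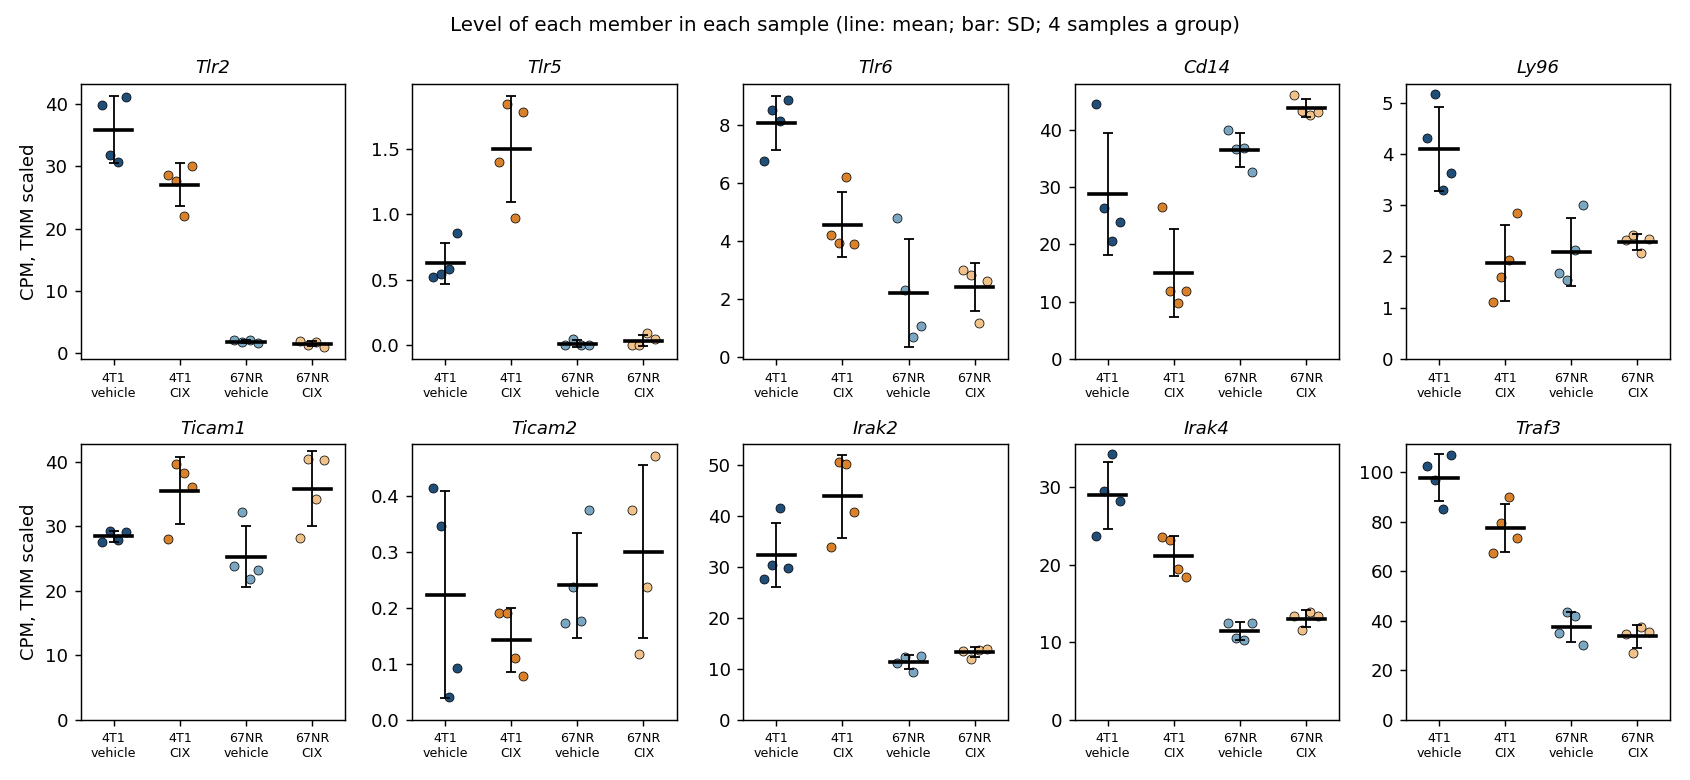
Level of each of the 10 members in CPM, TMM scaled, in every sample of the 4 groups on linear axes; points are samples, lines are means and bars are SD (n = 4). CIX samples of 4T1 lie below the vehicle samples without overlap for Tlr2, Tlr6, Ly96 and Irak4 and above them for Tlr5. Tlr2, Tlr5, Irak2, Irak4 and Traf3 are higher in all 4T1 than in all 67NR samples.

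Cd14 (ENSMUSG00000051439, chromosome 18), which binds lipopolysaccharide and passes it to the TLR4 complex, was, at a threshold of 0.05, lower after CIX in 4T1 and higher in 67NR cells. Vehicle treated 4T1 cells held 44.5, 26.3, 20.6 and 23.9 CPM, and CIX treated ones 26.6, 11.9, 9.85 and 11.9 CPM. Replicate 3 among the vehicle samples and replicate 4 among the CIX samples were each far above the others of their group, and the groups overlapped through CIX replicate 4. These 2 samples carry consecutive numbers, but the labels do not say whether consecutive samples were handled together, and they were not treated as a pair. The log2 fold change of -1.01 had a wide error (SE 0.33, limma-voom adjusted p = 0.034). It was below 0.05 in 3 of the 8 fits that lacked 1 sample, with adjusted p from 0.0055 to 0.091, and edgeR's quasi-likelihood test gave an adjusted p of 0.053. Without both of these replicates, a choice made after seeing the data, the 3 CIX samples that remained were all below the 3 vehicle samples, with a log2 fold change of -1.08 and an adjusted p of 0.0015. In 67NR cells the levels were 39.9, 36.7, 36.8 and 32.7 CPM under vehicle and 46.1, 43.4, 42.5 and 43.2 CPM under CIX. Here all CIX samples were the higher ones, by 0.25 on the log2 scale (SE 0.07, limma-voom adjusted p = 0.045). However, the adjusted p lay between 0.053 and 0.104 when any 1 of the 8 samples was left out. In the 9 other alternatives it was below 0.05 in 5, with values from 0.020 to 0.483. The response differed between the lines by -1.26 (SE 0.34, adjusted p = 0.011). This difference passed 0.001 without CIX replicate 4 of 4T1 (-1.59, adjusted p = 0.00064) and without both high replicates (-1.34, adjusted p = 2.8e-05). Cd68 was higher after CIX in both lines, also in 67NR where Cd14 was higher, and Ptprc gave 23 to 35 counts in vehicle treated and 3 to 26 in CIX treated 4T1 cells (means of 1.23 and 0.496 CPM) and 0 to 3 counts in 67NR cells, whereas Adgre1 was at 0 throughout. The part of these markers in the result for Cd14 was not tested. Between the untreated lines Cd14 did not pass (-0.41, interval -0.89 to 0.07), and without 4T1 vehicle replicate 3 it was lower in 4T1 with a log2 fold change of -0.65 and an adjusted p of 0.00095.

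Ly96 (ENSMUSG00000025779, chromosome 1, 16688051 to 16709611), which encodes MD-2, had low counts throughout, between 27 and 118 per sample. It was found at 4.30, 5.17, 3.30 and 3.62 CPM in vehicle treated and at 1.11, 1.61, 1.93 and 2.86 CPM in CIX treated 4T1 cells. The groups did not overlap, and the log2 fold change of -1.19 (SE 0.29, limma-voom adjusted p = 0.0099) corresponded to 0.437-fold, and without replicates 3 and 4 together it was -0.93 (adjusted p = 0.038). In 67NR cells, 1.67, 1.55, 2.13 and 3.01 CPM under vehicle compared with 2.33, 2.42, 2.06 and 2.34 CPM under CIX. These groups overlapped, with a log2 fold change of 0.15 and an interval from -0.37 to 0.68. The response differed between the lines by -1.35 (SE 0.39, adjusted p = 0.016). In the order of the groups, vehicle treated 4T1 cells with a mean of 4.10 CPM stood above the other 3, which lay at 2.29, 2.09 and 1.88 CPM and overlapped with each other. The higher level of untreated 4T1 cells over untreated 67NR cells amounted to 0.97 on the log2 scale (adjusted p = 0.0083).

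Ticam1 (ENSMUSG00000047123, chromosome 17, 56269319 to 56276786) encodes TRIF, the adaptor of TLR3 and of internalised TLR4. In the untreated lines it was measured at 27.6, 29.3, 27.9 and 29.1 CPM in 4T1 and at 23.9, 32.3, 21.8 and 23.2 CPM in 67NR, a log2 difference of 0.18 with an interval from -0.10 to 0.46. Without 67NR vehicle replicate 5, the highest of its group, the difference was 0.33 with an adjusted p of 0.020. With CIX it was measured at 28.02, 39.7, 38.3 and 36.1 CPM in 4T1 and at 28.2, 40.5, 34.3 and 40.4 CPM in 67NR. Of the CIX samples, 3 in each line lay above all vehicle samples of that line and 1 lay among them. The log2 fold changes of 0.29 in 4T1 (SE 0.13, limma-voom adjusted p = 0.094) and 0.49 in 67NR (SE 0.15, adjusted p = 0.060) did not pass 0.05. In 67NR the adjusted p lay below 0.05 without CIX replicate 2 (0.023) or vehicle replicate 5 (0.035) and in 3 of 9 other alternatives, the DESeq2 Wald test, the common fit and sample quality weights, with log2 fold changes from 0.42 to 0.60 with 1 sample left out. The responses of the lines were compared directly, and their difference was -0.20 with an interval from -0.64 to 0.24.

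Ticam2 (ENSMUSG00000056130, chromosome 18), which encodes TRAM, the bridge between TLR4 and TRIF, was detected near the floor in all groups. It gave 10, 8, 1 and 2 counts in vehicle treated 4T1 cells, 5, 4, 3 and 2 in CIX treated ones, 4, 5, 4 and 9 in vehicle treated 67NR cells and 10, 3, 5 and 11 with CIX. No order of the groups was visible, the exact permutation test giving 2-sided p = 0.571 for CIX in 4T1 and p = 0.686 in 67NR. Of its 31-base words 14% also occur in Tmed7, a neighbouring gene at group means of 63.3 to 106 CPM, so that even these few counts may be reads of that gene.

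Irak2 (ENSMUSG00000060477, chromosome 6, 113638467 to 113695026), a kinase-like protein that sustains signalling after IRAK4, was higher in 4T1 cells. Vehicle treated 4T1 cells held 27.7, 30.3, 41.6 and 29.8 CPM against 11.1, 12.4, 9.39 and 12.5 CPM in 67NR, where no sample reached the lowest of 4T1. The log2 fold change was 1.5 (SE 0.16, limma-voom adjusted p = 3.8e-05), a 2.82-fold difference. With CIX the levels were 33.8, 50.6, 50.2 and 40.7 CPM in 4T1 and 13.6, 11.9, 13.8 and 13.9 CPM in 67NR. Both groups overlapped with their vehicle samples, and the log2 fold changes of 0.42 (interval 0.03 to 0.81, adjusted p = 0.076) and 0.22 (interval -0.05 to 0.50, adjusted p = 0.24) did not pass. In 4T1 it was below 0.05 without vehicle replicate 11, without CIX replicate 4, in the common fit and with sample quality weights, with adjusted p from 0.0055 to 0.194 over all fits that lacked at most 1 sample. Part of its sequence, 8.01% of the 31-base words, occurs in other genes, mostly in Gm7229.

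Irak4 (ENSMUSG00000059883, chromosome 15, 94543643 to 94581815), the kinase recruited first to MyD88, was found at 23.7, 29.6, 34.3 and 28.2 CPM in vehicle treated 4T1 cells and at 12.5, 10.5, 10.3 and 12.4 CPM in vehicle treated 67NR cells. It was 2.50-fold higher in 4T1, a log2 fold change of 1.32 (SE 0.14, limma-voom adjusted p = 3.4e-05) without overlap. CIX treated 4T1 cells gave 23.65, 23.1, 19.5 and 18.5 CPM, all below the vehicle samples, though replicate 4 at 23.65 CPM lay next to vehicle replicate 3 at 23.69 CPM. The log2 fold change was -0.46 (SE 0.15, adjusted p = 0.029), and the adjusted p was below 0.05 in 3 of the 8 fits that lacked 1 sample (0.013 to 0.079). CIX treated 67NR cells held 13.4, 11.5, 13.9 and 13.4 CPM, a change of 0.17 with an interval from -0.09 to 0.43 that did not pass. The difference between the responses was -0.64 (SE 0.19, adjusted p = 0.020), and unlike for Irak2, whose difference was 0.20 (interval -0.30 to 0.70), it was negative and below 0.05 whichever of the 16 samples was removed.

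Traf3 (ENSMUSG00000021277, chromosome 12, 111166370 to 111267153), a ubiquitin ligase that links TRIF to interferon induction and restrains the alternative NF-κB pathway, had the highest counts of the members in 4T1 cells. Vehicle treated 4T1 cells gave 102.5, 96.8, 85.1 and 106.8 CPM, far above the 34.9, 43.5, 41.8 and 30.3 CPM of vehicle treated 67NR cells. The log2 fold change of 1.38 (SE 0.13, limma-voom adjusted p = 1.2e-05) was the most significant of the 7 members tested, and a 2.60-fold difference. With CIX, 67.3, 79.4, 90.0 and 73.3 CPM were measured in 4T1 cells, where replicate 12 exceeded the lowest vehicle sample, and 34.7, 27.1, 37.3 and 35.6 CPM in 67NR cells. The log2 fold changes were -0.35 in 4T1 (SE 0.12, adjusted p = 0.038) and -0.18 in 67NR (interval -0.48 to 0.13, adjusted p = 0.40), and their difference of -0.18 did not pass (interval -0.58 to 0.22). In 4T1 the adjusted p was below 0.05 in 2 of the 8 fits that lacked 1 sample (0.019 to 0.097) and 0.119 without replicates 3 and 4 together.

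The other genes of the pathway were described by 6 lists, with the threshold of 0.001. In 4T1 cells, 2 of 2 other TLRs tested were lower after CIX (Tlr3 and Tlr4). Among other adaptors, kinases and ubiquitin ligases 1 of 20 was lower, Tirap, which brings MyD88 to TLR2 and TLR4 (-1.01, limma-voom adjusted p = 0.00097). Among inducible target genes 1 of 12 was lower, the chemokine Ccl5 (-2.47, adjusted p = 0.00074). Among the genes listed as inhibitors 1 of 12 was higher, Tmed1 (1.39, adjusted p = 0.00099). Tmed1 encodes a trafficking protein that interacts with the IL-33 receptor, and its action on TLR signalling was not tested. Of all genes 3.99% were called lower and 5.35% higher, so that 1 of 20 and 1 of 12 were near the background. None of the 3 accessory and trafficking proteins or of the 3 endogenous ligands passed. The calls of Tlr4, Tirap, Ccl5 and Tmed1 lay close to the threshold, and held in 0, 1, 1 and 2 of the 9 fits with samples left out, respectively. In 67NR cells 0 genes of any list passed, where 0.389% of all genes did. The difference between the lines passed for 7.86% of all genes and in the lists for Tlr3, Tmed1 (1.94) and the inhibitor Il1rl1 (-4.03), the receptor of IL-33. Il1rl1 passed the filter in 67NR alone and had 2 to 25 counts per 4T1 sample after CIX. Its call held in 8 of the 17 fits with samples left out. At a threshold of 0.05 in 4T1 cells, 6 of 20 other adaptors, kinases and ubiquitin ligases were lower and 3 higher. Of 12 inducible target genes 5 were lower and 1 higher, and of 12 listed inhibitors 0 were lower and 2 higher. Of 3 ligands 0 were lower and 1 higher, and 2 of 2 other TLRs were lower. Of all genes 20.8% were lower and 21.9% higher at this threshold.

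Between the untreated lines, genes of these lists passed in both directions, and the lists were not tested as groups. Of the 16 inducible target genes listed, 8 passed the filter and were tested. Among these, 7 of 8 were higher in 4T1 and 0 lower, with a median log2 fold change of 2.88. At a threshold of 0.05, 7 were higher and 1 lower. Those higher included Cxcl1 (5.55), Ptgs2 (2.44), Nfkbiz (2.12) and Nfkbia (0.91), which are a neutrophil chemokine, cyclooxygenase 2 and regulators of NF-κB. Of 3 other TLRs tested, 1 was higher (Tlr3, 3.96, adjusted p = 3.2e-07). Of 18 other adaptors, kinases and ubiquitin ligases, 6 were higher (among them Tirap, Tab2, Peli1 and Myd88) and 3 lower. Of 12 genes listed as inhibitors, 5 were higher, led by Sigirr (3.71), and 3 lower, Il1rl1 (-6.00), Tmed1 (-2.87) and Socs1 (-3.07). Cnpy3, a chaperone needed for the surface transport of TLRs, was the 1 of 3 accessory proteins that passed and was lower in 4T1 (-1.18). Of 3 ligands tested, Hmgb1 (-0.84) and Vcan (-6.66) were lower, where 23% of the 31-base words of Hmgb1 occur in other genes and Vcan was at 2 to 136 counts in the vehicle treated 4T1 samples and held in 6 of 8 fits with 1 sample left out. The background for these counts is the 20.4% of all genes called higher and 19.6% called lower in 4T1.

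**Figure D4:**
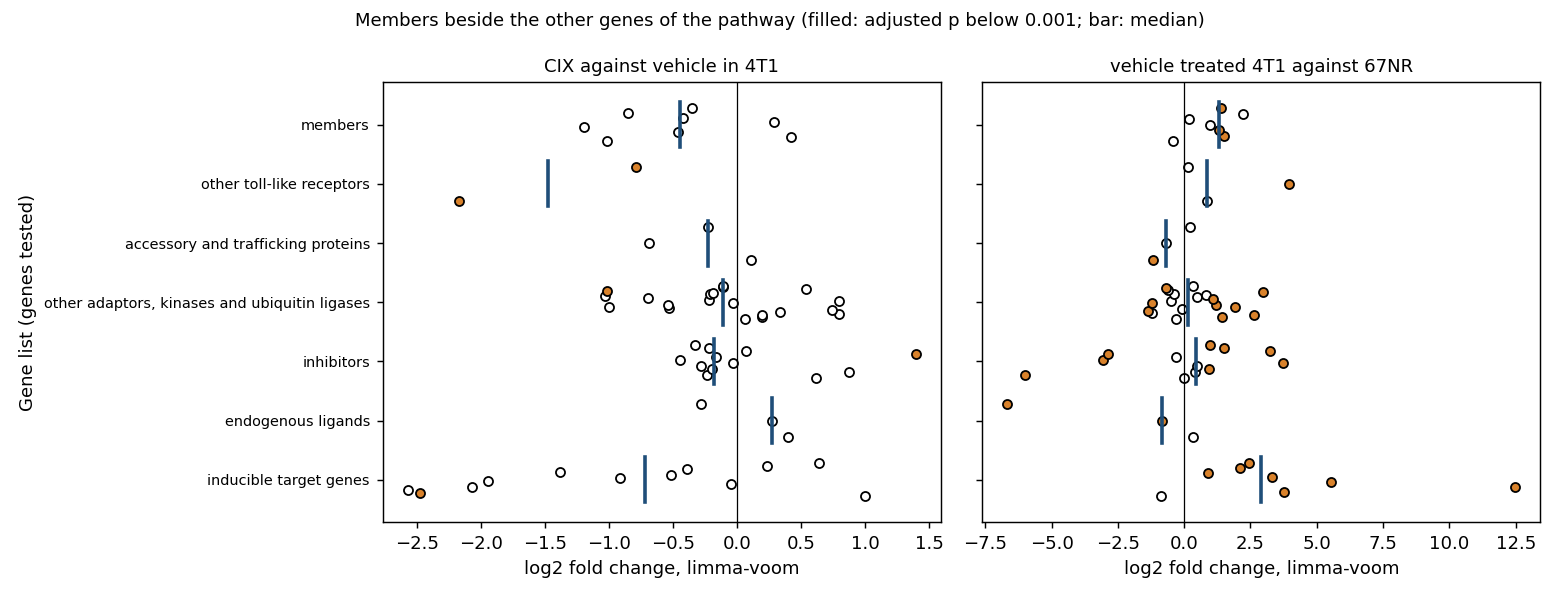
Log2 fold changes of the members and of the genes of 6 other lists of the pathway that were tested, for CIX against vehicle in 4T1 (left) and for vehicle treated 4T1 against 67NR (right); each point is a gene, filled where the adjusted p was below 0.001, and the vertical bar is the median of the list. The members have a median of -0.44 on the left without a filled point and of 1.32 on the right with 3 filled points.

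Over the 16 samples, the genes whose log2 CPM followed each member most closely among 12597 genes were listed as a description. The highest Pearson correlations were those of Irak2 with Ets2 (0.985) and 2310007B03Rik (0.982), of Traf3 with Robo1 and Agpat5 (both 0.981), and of Irak4 with Zbed5 (0.970) and Tceal1 (0.969). Cd14 was followed by Rab21 (0.967) and Sqle (0.961), Ly96 by Tank (0.908) and Trmt13 (0.906), Tlr6 by Ndst2 (0.904) and Ptcd1 (0.897), and Ticam1 by Usp35 (0.900) and Syt17 (0.874). These points share the cell lines and the treatment.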

How the data were processed

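RNA of the 16 samples was sequenced from stranded mRNA libraries. Estimated counts per gene were deposited by the authors, who had quantified transcripts with salmon (version 0.12 in the submitters' processing notes) on the Ensembl GRCm38 mouse annotation and summed them to genes with tximport, without normalization. The notes also list the build GRCh38, but the identifiers are those of mouse genes. All 16 columns were mapped by their labels, and no column was left out. Symbols, positions and mean transcript lengths came from GENCODE M21, where 32832 of the 33072 genes were found.

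Rounding turned the estimated counts into whole numbers, and an approximate TPM was made from count and mean transcript length. A gene was left out where more than 3 of the 8 samples of a comparison had a TPM below 1 (for the difference between the lines, only if this held in both lines). Members left out were also tested in a fit without this filter. The test was limma-voom with TMM scaling (limma 3.58.1, edgeR 4.0.16, R 4.3.3), with a Benjamini-Hochberg adjusted p below 0.001, the threshold of the study, required over all tested genes. The 8 samples of each line, the 8 vehicle samples and, with an interaction term, all 16 samples were fitted. Exact permutation tests used log2(CPM + 0.1). The alternatives comprised DESeq2 1.42.0 (Wald test), the quasi-likelihood test of edgeR, other scalings and filters, a common fit, sample quality weights, log2(TPM + 1), a threshold of 0.05 and leaving out each sample. For the untreated lines a filter passed in either line, which admits genes through the line where they are high and is not reported, and the removal of 4T1 replicates 3 and 4 together were chosen after seeing the data. The scripts were tested on simulated data. Replicates are biological according to the study, and no pair within a group agreed within sampling noise (chi-square of at least 18.1 per gene).

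All members are named, and of the lists, the up to 4 genes with the lowest adjusted p among those called. For each member expressed in both lines the 2 genes most correlated are named. The members and lists were chosen with earlier results of these data known. Words of 31 bases shared between transcripts of different genes were counted, because salmon can divide reads between such genes.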

Additional observations from a re-analysis of the deposited data

Results flagged for a closer look

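Of the 40 sets of 4 samples (10 members in 4 groups), 5 held a sample far from the others of its group, where chance flags about 1 in 20, or 2. Cd14 stood at 26.6 CPM (656 counts) in replicate 4 of the CIX treated 4T1 cells, against 9.85 to 11.9 CPM in the other 3. Tlr6 was at 6.23 CPM in replicate 12 of the same group, the others lying between 3.89 and 4.21 CPM. Irak2 was lowest in replicate 6 of the CIX treated 67NR cells with 11.9 CPM, below 13.6 to 13.9 CPM. Tlr5 reached 0.860 CPM (21 counts) in replicate 15 of the vehicle treated 4T1 cells, above 0.521 to 0.578 CPM, and 0.0460 CPM in replicate 5 of the vehicle treated 67NR cells, which is 1 count where the others had 0.

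The response to CIX differed between the lines at an adjusted p below 0.05, but not below 0.001, for 3 members. The log2 fold change in 4T1 minus that in 67NR was -1.26 for Cd14 (limma-voom adjusted p = 0.011), -1.35 for Ly96 (adjusted p = 0.016) and -0.64 for Irak4 (adjusted p = 0.020). For Cd14, 4 of 4 CIX samples in 67NR were above all vehicle samples, while in 4T1 the groups overlapped through CIX replicate 4.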

How the results depend on the processing

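Of the 0 members called for CIX in 4T1, the count became 1 with the DESeq2 Wald test (Tlr6) and 6 at a threshold of 0.05, which also gave 1 in 67NR (Cd14), 3 for the difference between the lines and 5 between the untreated lines. For the difference, the count became 1 (Cd14) with sample quality weights, and 0 to 1 with samples left out, 4T1 vehicle replicate 3 and CIX replicate 4 together giving 1. Without a filter on low values, 5 members in place of 3 were called between the untreated lines, with Tlr2 and Tlr5 added, where 6461 of all genes were called, and 3 to 4 with 1 sample left out. Tlr6 was called there with the DESeq2 Wald test (adjusted p = 0.00027) and in the common fit (0.00014), and Ly96 with sample quality weights (0.00093).

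The sign turned in 3 fits, all of values far from the threshold. Tlr6 in 67NR became -0.029 without vehicle replicate 9, in a range of -0.029 to 0.91 with 1 sample left out. The difference of the response of Tlr2 became 0.0285 with sample quality weights and 0.0055 without 67NR CIX replicate 2, in a range of -0.28 to 0.0055 with 1 sample left out. The cause was not tested. Of the other fits of members, 263 with another method and 314 with samples left out kept the direction and the side of the threshold, and 5 and 4 newly passed it. Of the fits of the other named genes of the pathway, 220 and 181 did so and 9 and 43 lost the call.

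Over all genes, 1089, 45, 991 and 4420 genes were called for CIX in 4T1, CIX in 67NR, the difference and the untreated lines. The DESeq2 Wald test gave 3096, 1040 and 1980 for the first 3, sample quality weights gave 2523, 247 and 1916, a common fit gave 2679 and 151 for the first 2, and log2(TPM + 1) gave 27 in 67NR. A threshold of 0.05 gave 4982, 2054, 3704 and 7442. With samples left out the counts lay between 269 and 975, 0 and 75, 652 and 1247, and 3496 and 4367.

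No paired analysis was possible because the labels number the 16 samples throughout, so that the groups share no number, and do not say which samples belong together. Whether consecutive numbers mark rounds of the experiment is not given, and no fit by such rounds was made. Depth limited Ticam2, with 1 to 11 counts per sample, and Tlr5 in 67NR cells, with 0 to 2.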
